A study of Mus musculus with 4 samples.

Results

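The genes described here had a probe whose signal 4 days into reprogramming was at least 2-fold above both the untreated control and day 8. Day 6 took no part in the choice, and 9 of the probes were at or above their day 4 level there. A probe was taken where its GeneName was a gene symbol, its signal was well above background at day 4, and its day 4 level was at least 1 log2 unit (2-fold) above both the CMP control and day 8. The rule took 323 probes of 301 genes, out of 55681 probes on the array, of which 33250 carried a usable symbol and 22319 of these were well above background at day 4. The members were thus chosen by their own levels on the control, day 4 and day 8 arrays, and those differences are given as a description with no test. A level is the log2 of the processed Cy3 signal minus the 75th percentile of its array, so that 0 marks a signal of 389 and 388 on the control and day 4 arrays and of 406 to 411 on the later arrays.

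CMPs are cardiac mesenchymal progenitors, Sca-1+ cells cultured from the hearts of adult C57BL/6 mice. The CMP control was untreated (day 0), and the OSKM-CMPs were transduced with Sendai virus encoding Oct4, Sox2, Klf4 and c-Myc and were collected at days 4, 6 and 8. The OSKM-CMPs were also moved to a reprogramming medium without leukemia inhibitory factor, so that virus, medium and days in culture cannot be told apart against the control. Each condition had 1 single-colour Agilent array, so there was no replicate error, and the error given after ± is that of the Feature Extraction model within the arrays, which covers neither cultures nor RNA preparation. In such bulk RNA, fewer cells of a type and less RNA per cell cannot be told apart.

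All 9 mesenchymal progenitor markers (among them Ly6a, which encodes Sca-1, and Pdgfra, Thy1, Col1a1 and Vim) were well above background on every array. The summed signal of 6 adipocyte markers was 967, 7569, 52472 and 134110 on the control, day 4, day 6 and day 8 arrays, with 1, 5, 5 and 6 of them above background. The 4 smooth muscle markers summed to 225963, 14335, 8255 and 7876. The members thus fell while adipocyte markers rose, and the part of a changing cell mixture in that fall was not tested.

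When reprogramming factors enter a somatic cell, the genes of the starting cell are usually switched off early and genes of other lineages can be switched on for a short time before the final state is reached. Stratified epithelium, placenta, neuroendocrine cells and embryonic tissue each have characteristic gene families, and some of their genes appear among the members. Several of these families lie as tandem copies on 1 chromosome, among them the small proline-rich (Sprr) genes and the Serpina3 genes.

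The Sprr2 and Serpina3 promoters are shown because these neighbouring copies gave several members each. The 150 bases before the RefSeq start (GRCm38.p6, plus strand) are printed 5′ to 3′. In the Sprr2 sequences capitals mark ATTTGCAT, the reverse complement of the octamer ATGCAAAT that Oct4 and other POU factors bind, and the TATA box TATAAA. In the Serpina3 sequences capitals mark the longest run that all 3 share, 11 bases.
Sprr2d, chr3:92338990-92339139: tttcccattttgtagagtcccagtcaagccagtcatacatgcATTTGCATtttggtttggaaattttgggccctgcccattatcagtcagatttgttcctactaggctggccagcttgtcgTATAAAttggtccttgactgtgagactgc
Sprr2e, chr3:92351993-92352142: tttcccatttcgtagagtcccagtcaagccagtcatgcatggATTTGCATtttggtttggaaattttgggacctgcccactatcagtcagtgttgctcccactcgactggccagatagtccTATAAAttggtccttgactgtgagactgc
Sprr2f, chr3:92365037-92365186: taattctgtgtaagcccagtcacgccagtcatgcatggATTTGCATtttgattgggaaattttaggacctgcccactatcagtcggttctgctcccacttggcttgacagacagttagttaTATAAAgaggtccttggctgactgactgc
Serpina3f, chr12:104214394-104214543: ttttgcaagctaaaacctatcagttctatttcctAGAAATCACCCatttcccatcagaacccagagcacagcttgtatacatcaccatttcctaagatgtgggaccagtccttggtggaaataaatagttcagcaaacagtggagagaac
Serpina3g, chr12:104235997-104236146: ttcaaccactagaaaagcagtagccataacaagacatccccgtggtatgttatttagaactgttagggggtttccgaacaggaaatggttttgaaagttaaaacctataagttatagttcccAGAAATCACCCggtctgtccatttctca
Serpina3i, chr12:104262972-104263121: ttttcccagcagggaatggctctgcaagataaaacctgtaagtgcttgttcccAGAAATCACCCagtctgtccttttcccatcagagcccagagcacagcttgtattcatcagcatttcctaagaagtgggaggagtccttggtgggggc
In all 3 Sprr2 promoters the TATA box began 29 bases before the start, and the octamer began 108 bases before it in Sprr2d and Sprr2e and 112 in Sprr2f. Without gaps, Sprr2d and Sprr2e had the same base at 136 of 150 positions. The shared Serpina3 run began 116, 28 and 97 bases before the start in Serpina3f, Serpina3g and Serpina3i, and these 3 windows held neither a TATAAA nor an octamer. Serpina3f has a further start in the table, and its upstream one is shown.

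The background of the rule was as follows. Of the 22319 probes with a symbol well above background at day 4, 11.9% were at least 2-fold above the control, 3.79% were at least 2-fold above day 8, and 1.45% met both conditions. By the same thresholds 91 probes peaked at day 6, and 26 of these were also members. The opposite pattern, a day 4 level at least 2-fold under a control and a day 8 that were both well above background, was seen in 175 probes. The probes just inside the threshold belonged to Rrad, 0610040J01Rik and Tnni1, with a smaller difference of 1.00 each. Those just outside belonged to Wfikkn2, Olfr948 and Muc5b, also at 1.00 when rounded, and another probe of Wfikkn2 was a member.

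The members differed widely in brightness. Only 119 probes (36.8%) were well above background on all 4 arrays, 90 (27.9%) on 2 or 3 arrays, and 114 (35.3%) on the day 4 array alone. The median day 4 signal was 244 in the 119 probes, 39.5 in the 90 and 19.1 in the 114. The median of the smaller difference was 1.24, 1.35 and 1.86 in the same order. When signals were background-corrected by normexp with an offset of 50 and quantile-normalized, 60 probes met the rule, 59 of them members, of which 46 came from the 119, 11 from the 90 and 2 from the 114. That offset by construction shrinks the fold change of signals near or below it, and the median day 4 signal of all members was 43.9.

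**Figure D1:**
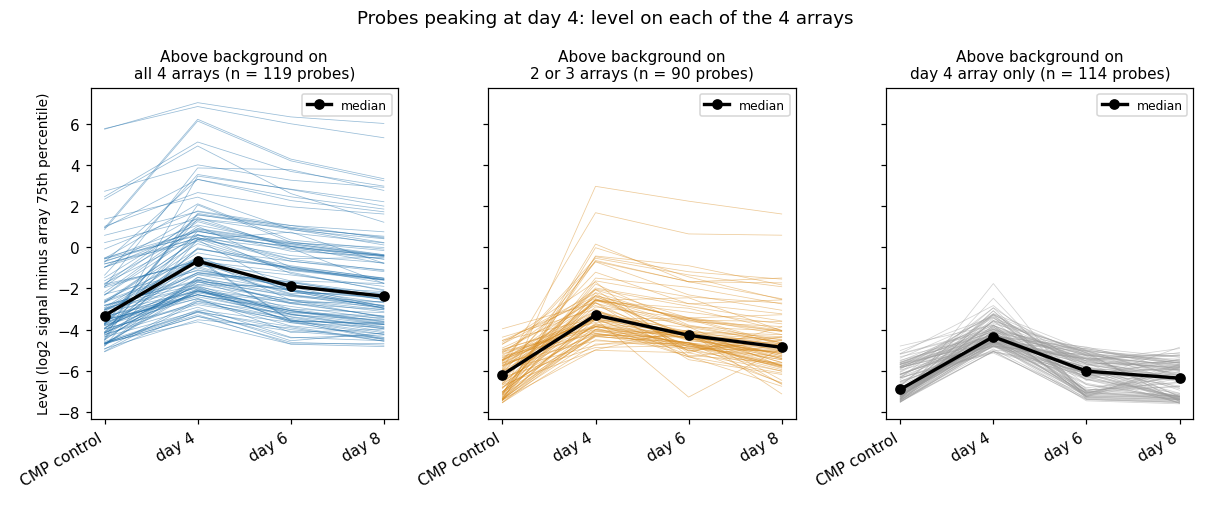
Level of each member probe on the 4 arrays (y axis, log2 signal minus the array's 75th percentile), split by the arrays on which it was well above background; thin lines are probes and the black line is their median. Medians at day 4 were -0.67, -3.30 and -4.35 from left to right, and every line peaks at day 4 against the control and day 8 because the rule asked for it.

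Next to Cxcl12, the brightest members at day 4 were of the prolactin family. Prolactin-family hormones are made in the pituitary and, for the Prl2c genes (proliferins), in placental trophoblast and in growing fibroblasts. The brighter of the 2 Prl2c5 probes (chr13:13283943-13284002 on mm9) read 0.95, 6.23, 4.29 and 3.34 on the control, day 4, day 6 and day 8 arrays. Day 4 was 38.9-fold above the control (5.28 ± 0.20 on the log2 scale) and 7.42-fold above day 8 (2.89 ± 0.20). The Prl2c1 probe read 2.46, 5.12, 3.69 and 2.98, and the Prl probe -3.30, -0.93, -2.24 and -2.22. All 3 genes remained above the control at day 8, by 2.39, 0.51 and 1.08. The file lists transcripts of Prl2c2 and Prl2c3 for 1 Prl2c5 probe and of Prl2c1 for the other, so these near-identical copies cannot be told apart. Of 23 prolactin-family genes with a probe, 6 were well above background at day 4, and the other 3 (Prl3b1, Prl3d1 and Prl6a1) differed from the control by 0.13, -0.37 and -0.22. The receptor Prlr was no member and rose throughout, at -3.36, -2.14, -1.19 and -0.59 as the mean of 2 probes.

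The Serpina3 genes encode serine protease inhibitors of the acute-phase type. Serpina3g, bright in the CMP control, read 2.34, 4.93, 2.62 and 1.22, so that day 4 was 6.00-fold above the control and 13.1-fold above day 8, and day 8 was below the starting level. Serpina3f read -3.40, -0.55, -2.57 and -3.41. Serpina3i read -1.96, -0.63, -3.57 and -4.24. The second probes of these 2 genes did not meet the rule. That of Serpina3i read -1.87, -1.13, -3.18 and -3.71, a peak of 0.74 over the control. That of Serpina3f read -0.43, -0.90, -2.53 and -3.24, highest in the control, so the rise of Serpina3f depended on the probe. Serpina3n, the most abundant relative in the control, was no member and read 4.41, 1.61, 0.36 and 0.08. The 3 members span 47.8 kb of chromosome 12 (105458989 to 105506764 on mm9), where 4 genes had a probe.

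The Sprr genes encode cross-linked proteins of the cornified envelope of stratified epithelium, and the late cornified envelope (Lce) genes lie beside them. Sprr2d was not well above background in the control (-7.47) and read -0.02, -1.44 and -2.54 at days 4, 6 and 8, which made day 4 at least 40.0-fold above the control and 5.76-fold above day 8. Sprr1b was likewise not well above background in the control (-7.12) and read -0.64, -1.67 and -1.73. Sprr2e and Sprr2f were well above background at day 4 alone, at -3.55 and -3.42, and Sprr2g on the control and day 4 arrays alone, at -3.96 and -2.69. Sprr2d was the only Sprr2 member that kept both differences after normexp correction (the smaller was 1.92). In Sprr2e both fell short, at 0.76 and 0.68.

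The family did not move as a block. Sprr3 and Sprr2k were well above background in the control alone (0.07 and -2.44), and Sprr1a read 2.98, 2.57, 2.53 and 3.03. Lce1g (-4.71, -2.37, -4.42, and -5.19 at day 8, where it was not well above background) and Lce1i (-6.49 in the control, not well above background, then -2.06, -3.44 and -3.28) were members. In all, 13 of the 15 Lce genes well above background at day 4 had a probe at least 2-fold above the control there, and 2 of the 13 were members. Of all probes with a symbol measured at day 4, 11.9% were at least 2-fold above the control, a share of probes and not of genes. One of 2 Lce1c probes, which also lists Lce1e and Lce1f, read -3.98, -1.58, -2.40 and -2.32. Another Lce1i probe lost 0.39 between day 4 and day 8. On chromosome 3, from 92144721 to 92581218 (mm9), 8 members lay within 436 kb among 19 genes well above background at day 4 and 26 with a probe. The 8th is 2310046K23Rik, which read -5.90 (not well above background), 1.69, 0.65 and 0.59.

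**Figure D2:**
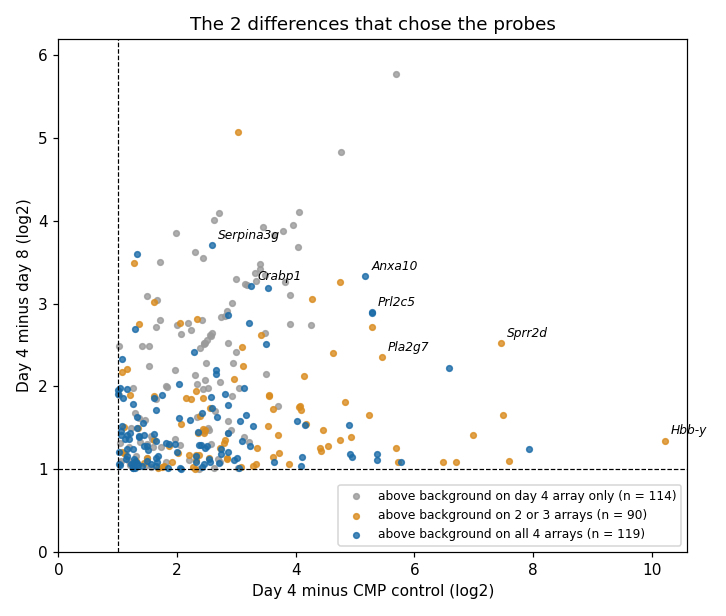
Day 4 minus CMP control (x axis) against day 4 minus day 8 (y axis), both in log2, for the 323 member probes, with dashed lines at the threshold of 1 on each axis that chose them. Colour gives the arrays on which the probe was well above background, and the grey points, measured on the day 4 array alone, reach the greatest heights on the y axis (5.77), while Hbb-y lies farthest right.

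Some members are best known from neurons and endocrine cells, and these were grouped after the values had been seen, so their counts are no independent evidence. They were 7 of 17 neuropeptide and secretory granule genes well above background at day 4 and 2 of 6 neurofilament and retinoid-binding genes, beside 1.82% of all genes measured at day 4. Among the 7 were Insm1, dim at -4.27 on day 4, and Insm2. Another Insm2 probe, measured throughout, read -4.36, -4.12, -3.71 and -4.53 and did not peak at day 4. Crabp1, a cytosolic carrier of retinoic acid, read -1.79, 1.45, -0.04 and -1.75, a rise of 3.25 on the log2 scale and a 9.25-fold fall that returned it to within 0.04 of the control. Ghrh, growth hormone-releasing hormone, read -4.10, -0.57, -3.55 and -3.76. Scg5, a chaperone of prohormone convertase, read -3.95, -0.44, -2.13 and -2.95. These 3 genes were measured on every array and kept the rule after normexp correction.

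Nefl, the light neurofilament, read -2.54 at day 4 and -3.87 at day 6, and was not well above background in the control or at day 8 (at least 6.97-fold and 6.82-fold lower). The neuropeptide genes Nts and Pnoc read -0.53, -1.34 and -1.91, and -1.49, -1.94 and -2.75, at days 4, 6 and 8, both from a control not well above background. Bex1, Bex2 and Bex4, X-linked genes abundant in brain, were all members. The brighter Bex1 probe read -2.55 and -4.28 at days 4 and 6 and was not well above background in the control or at day 8. Bex2 read -3.10, -4.54 and -4.96 at days 4, 6 and 8, and Bex4 was above background at day 4 alone, at -3.59. Other genes of these groups went other ways. Penk, which encodes the enkephalin precursor, read -0.84, 5.01, 4.93 and 4.34, and Tac1, which encodes substance P, -4.65, -1.32, -0.86 and -1.48. Vgf read 1.84, -0.59, -1.67 and -2.25, and Scg2 and Nefm were well above background in the control alone (-2.09 and -4.54).

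Anxa10, an annexin of gastric epithelium, had the greatest peak among the probes measured on all 4 arrays. It read -4.80, 0.37, -2.12 and -2.97, so that day 4 was 36.1-fold above the control (5.18 ± 0.30) and 10.1-fold above day 8 (3.34 ± 0.21). Aldoc, the brain-type glycolytic aldolase, read -2.19, 1.03, -0.96 and -1.73. It was the only member among 34 measured genes of the glycolysis and hypoxia list, beside 1.82% of all genes measured at day 4. The list's median day 4 minus control difference was -0.63, against 0.02 over all probes with a symbol. Pla2g7, a secreted phospholipase that inactivates platelet-activating factor, read -4.52, 2.07, 0.25 and -0.15 with its brighter probe and -6.15 (not well above background), -0.70, -2.31 and -3.06 with the other. Fbxo2, a ubiquitin ligase subunit for glycoproteins, read -0.54, 2.12, 0.36 and -0.09.

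Imprinted genes were a further group noticed in the values. Cdkn1c, the cyclin-dependent kinase inhibitor p57, read -1.91, 3.86, 3.78 and 2.77, a 54.5-fold rise of which only 0.08 was lost by day 6 and 1.09 by day 8. The brightest of 3 Mest probes read -1.48, 1.33, 0.07 and -0.58, and all 3 probes were members, with day 4 minus control between 1.97 and 2.85. Slc38a4, an amino acid transporter, read -4.79, -1.69, -2.55 and -3.03. Peg3 met the rule with a probe above background at day 4 alone (-4.51), whereas another Peg3 probe, measured throughout, read -2.79, -2.15, -2.57 and -2.17. These were 4 of 23 imprinted genes well above background at day 4, beside 1.82% of all genes measured at day 4, and the group was chosen after the values had been seen.

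Hbb-y, the embryonic beta-like globin, had the largest day 4 minus control difference of all members. Its brighter probe read -4.46, 3.47, 2.83 and 2.22, which put day 4 243-fold above the control and 2.37-fold above day 8. The other probe was not well above background in the control and read 2.97, 2.25 and 1.62 afterwards, at least 317-fold above the control at day 4. The adult globins did not follow it, since Hba-a1 read -4.20, -4.07, -3.62 and -2.64, and Hbb-b1 was well above background at day 8 alone (-4.86). Epor, the erythropoietin receptor, was a member at -1.63, 0.85, 0.12 and -0.41.

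Of 29 skeletal and cardiac muscle genes well above background at day 4, a group also made after the values had been seen, 10 were members and 16 had a probe at least 2-fold above the control. Of all genes measured at day 4, 1.82% were members, and 11.9% of the probes were at least 2-fold above the control. The latter is a share of probes, whereas a gene was counted if any of its probes passed. Rgs5, a pericyte regulator of G-protein signalling and a member outside this muscle group, read -0.72, 3.31, 2.28 and 1.73. All 3 probes of Pgm5, an adherens-junction protein of muscle, were members, and the brightest read -1.35, 3.54, 2.81 and 2.01. Hspb6, a small heat shock protein of muscle, read 2.73, 4.01, 3.27 and 2.92. Myl2, the ventricular myosin light chain, read -4.47, -1.60, -2.38 and -2.82, and Tnni1, the slow troponin I, -1.79, -0.79, -2.05 and -2.70. Myocd, the coactivator of smooth muscle genes, reached -3.85 at day 4 and -4.72 at day 6 and was otherwise not well above background. Among the other striated muscle genes, Acta1 read 2.40, -1.46, -2.36 and -2.06, the brighter Myh8 probe -1.20, -4.12, -4.44 and -4.40, and Tnnt2 3.56, 2.14, 2.70 and 1.96. The smooth muscle genes Acta2 and Tagln were highest in the control (8.14 and 8.21) and read 4.24 and 4.16 at day 4.

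**Figure D3:**
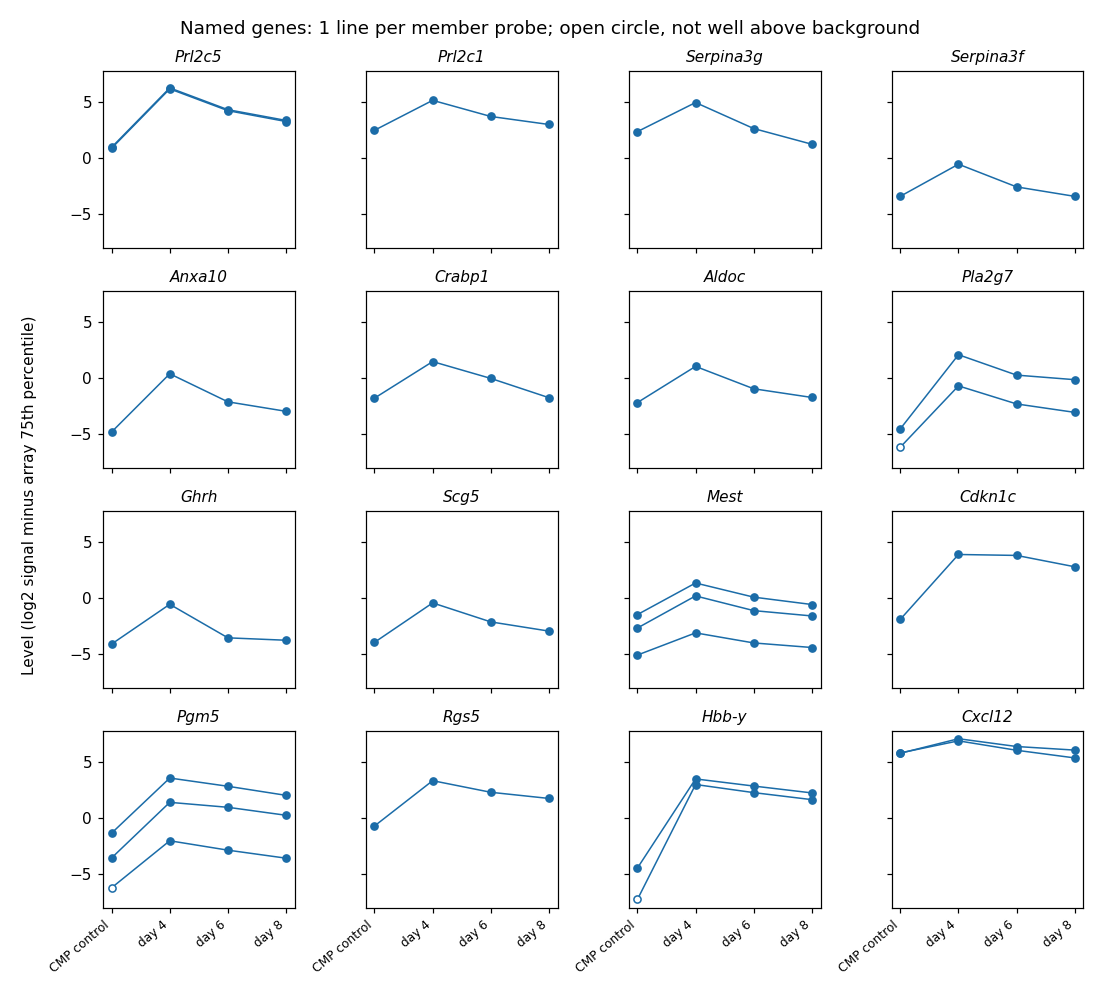
Level of the member probes of 16 named genes on the 4 arrays (y axis, log2 signal minus the array's 75th percentile), with 1 line per probe and open circles where a probe was not well above background. Prl2c5 falls from about 6 to 3, Crabp1 returns to its control level, and Cdkn1c and Hbb-y lose little of a large rise.

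Apart from the prolactin list, the lists of secreted signals and their receptors held at most 2 members each. Those were 7.41% of the measured chemokines, 8.33% of the EGF list, 5.13% of the Wnt list and 11.8% of the Notch list. The shares were lower in the other growth factors (2.44%) and the BMP and TGF-beta list (2.63%), and the cytokine list held no member among 21 measured genes. Of all genes measured at day 4, 1.82% were members. Cxcl12, a chemokine of mesenchymal stroma and the brightest member, read 5.75, 7.04, 6.35 and 6.03 with 1 probe and 5.78, 6.85, 6.01 and 5.33 with the other. Ccl24 rose from -5.52, not well above background, to -2.41, and read -3.81 and -4.66 later. These were 2 members among 27 measured chemokines, 10 of which were at least 2-fold above the control at day 4. Over all probes with a symbol measured at day 4 that share was 11.9%, a share of probes and not of genes. Ccl5, which read 0.08, 7.24, 8.33 and 9.01, rose further without a fall. Bmp2 read -2.31, 0.92, 0.27 and -0.36, while 16 of 41 measured growth factors were at least 2-fold below the control at day 4. The share below the control at day 4 was not counted over all genes. Areg, an EGF receptor ligand, read -4.64, -3.28, -4.70 and -4.67. Igfbp3, which binds insulin-like growth factors, read -3.76, 1.60, 0.85 and 0.42 with its brighter probe.

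In the Wnt list, the ligand Wnt16 (-5.06, -3.90, and not well above background at days 6 and 8) and the secreted inhibitor Wif1 (-2.96, -1.92, -3.67 and -3.89) were 2 members of 39 measured genes. Another Wnt16 probe read -4.48, -3.64, -3.86 and -4.27. In the Notch list the ligands Jag2 (-4.50 at day 4 alone) and Dll3 (-4.03, -4.90 and -5.05 at days 4, 6 and 8) were 2 of 17, and the other Dll3 probe measured at day 4 moved by 0.66 over the control. Of the pluripotency list only Tfcp2l1 (Tcfcp2l1 in the files), a regulator of naive embryonic stem cells, held a member probe, at -3.69 on day 4 and -4.76 on day 8. Its other probe read -3.94, -4.68 and -4.38 at days 4, 6 and 8 and lost only 0.44 between day 4 and day 8. Other listed members were Steap4 (-1.21 at day 4, -2.74 and -2.56 later), Mmp13 (-4.17, day 4 alone), Adamts8 (-3.71, -0.09, -0.67 and -1.18) and Krt18 (-0.80, 0.29, -1.09 and -1.57). Krt18 was the only member among 36 measured genes of the epithelial list, of which 20 were at least 2-fold above the control at day 4. The list's median day 4 minus day 8 difference was 0.07. Of 27 keratin genes measured at day 4, 14 were at least 2-fold above the control and 4 were members. Beside these counts, 1.82% of all genes measured at day 4 were members, and 11.9% of the probes were at least 2-fold above the control. The Krt12 member probe was above background at day 4 alone, and the other, not well above background, moved by 0.10 over the control. Krt84 was dim (-4.28 at day 4), and the pixel SD of the day 4 spot of Krt27 was 47.9% of the mean. Among keratins that rose and held, Krt14 read -4.04, 1.34, 0.49 and 0.87, and Krt16 -1.17, 3.74, 3.37 and 3.78.

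Of 30 gene lists 16 held a member and 14 held none, and 22 of the 301 member genes were in any list. Across all genes measured at day 4, 1.82% were members. The prolactin list, which includes Prlr, held 3 members among 7 measured genes, and no other list held more than 2. The interferon-stimulated list had no member among 58 measured genes, although 36 were at least 2-fold above the control at day 4. That compares with 11.9% of all probes with a symbol measured at day 4, a share of probes and not of genes. The list's median day 4 minus day 8 difference was -0.33, against 0.04 over all probes with a symbol. The class I antigen presentation list had no member among 24 genes, with medians of 1.35 against the control and -0.36 against day 8. Over all probes with a symbol these medians were 0.02 and 0.04. The G2/M list had no member among 38 genes. At day 4, 27 of them were at least 2-fold below the control, a share that was not counted over all genes. In 23 of the 38, day 4 was at least 2-fold above day 8, against 3.79% of all probes with a symbol measured at day 4. The immediate early and AP-1 list had none among 37, with a median of -0.94 against the control. With 1.82% of all genes as members, lists of this size can hold none, so an empty list is no result in itself.

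The day 6 array took no part in the choice, although the arrays it is compared with did. In 267 of 323 probes the day 6 level lay between those of day 4 and day 8, in 9 it was at or above day 4, and in 47 at or below day 8. The median share of the fall from day 4 to day 8 that had been reached by day 6 was 66.8%, and it was 65.8% in the 119 probes measured on every array. Day 6 was at least 2-fold below day 4 in 54.5% of members, against a background of 2.34%, and the day 4 values that chose the members stand on both sides of that comparison. The other 45.5% held within 2-fold of day 4. Day 6 remained at least 2-fold above the control in 52.0% of members, against 12.5% of all such probes, and was at least 2-fold above day 8 in 17.3%, against 0.672%. In the 119 probes measured throughout the last share was 3.36%.

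Among members with a smaller difference of at least 1.5, those that held best at day 6 were Kirrel3 (-4.11 and -4.13 at days 4 and 6), Fank1 (-5.01 and -5.20), Clec1a (-4.49 and -4.95) and 9530056K15Rik (-4.00 and -4.65), all dim probes, and Fank1 was not well above background at day 6. Kirrel3 had 2 other probes measured at day 4, a brighter one at -1.81 and a dimmer one at -4.37, and both read below their control level. Those with a day 6 level farthest under day 8 were LOC100505112, Krt27, A230103O09Rik and Cd200r3, each not well above background at day 6. Among bright members, Wfikkn2, a secreted antagonist of myostatin, read -3.72, 0.38, 0.74 and -0.77, and was the only probe measured on all arrays with its highest level at day 6.

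**Figure D4:**
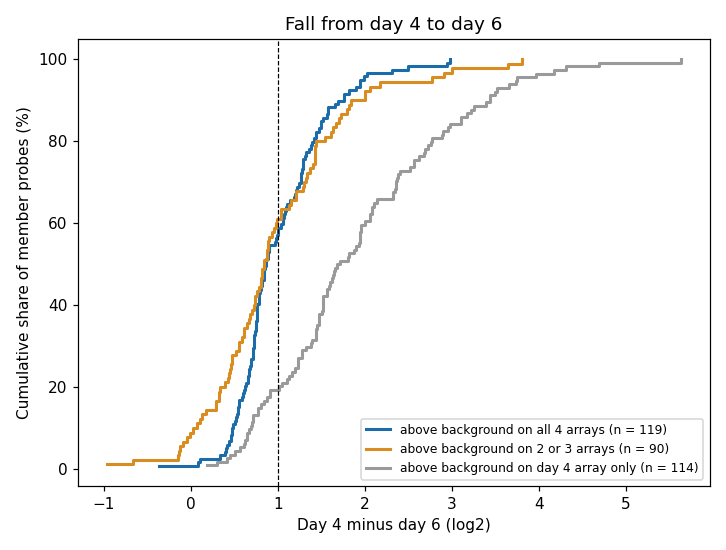
Cumulative share of member probes (y axis, %) against day 4 minus day 6 (x axis, log2), for probes well above background on all 4 arrays, on 2 or 3, or on the day 4 array alone; the dashed line marks a 2-fold fall. The share past the line was 41.2%, 38.9% and 80.7%, so the dim probes lay farthest to the right.

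By day 8 the members had not all returned to the control level. Day 8 was above the control in 67.8% of probes (219 of 323) and in 73.1% of the 119 measured throughout. In the probes measured on the day 4 array alone the share was 49.1%, a comparison of readings not well above background. Day 8 was at least 2-fold above the control in 36.2% of members, against a background of 13.7%, and at least 2-fold below it in 6.81%, against 9.98%. The control and day 8 levels both took part in the choice of members, so the difference from the background is a description and no test. Among probes measured on all 4 arrays, Hbb-y (6.68), Cdkn1c (4.68), Pla2g7 (4.37), 1190003J15Rik (4.26) and Igfbp3 (4.18) stood highest over the control at day 8, while Serpina3g and Serpina3i ended 1.12 and 2.28 below it. In 172 probes the order was day 4, day 6, day 8, control from high to low.

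The tallest peaks need to be read with their spots. Among the 15 genes of greatest peak height 14 were measured at day 4 alone, and Anxa10 was the exception. 1810013D15Rik read -1.76 at day 4 and between -7.53 and -7.39 elsewhere, where it was not well above background, so that day 4 was at least 11.7-fold higher than day 8. Vmn1r21, a vomeronasal receptor, reached -2.48 and Vwa3a -3.30, at least 7.12-fold and 4.02-fold higher than at day 8. The others were Sprr2e, LOC100042435, AI593442, Gm3120, Sirpb1a, Gpr31c, Dnahc17, Olfr1012, Gm6288, Cacng5 and Wdr64, at day 4 levels from -4.07 to -2.94.

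In several of these the pixels of the spot were uneven. The pixel SD was 53.0% of the mean in the day 4 spot of 1810013D15Rik, 56.6% in Vmn1r21, 59.0% in AI593442, 56.8% in Gpr31c and 43.7% in Wdr64, but 23.6% in Vwa3a and 26.8% in Sprr2e. The median over the 114 probes was 25.7%, against 23.6% in 4760 spots of a like day 4 level measured on every array. The spread exceeded 40% in 10 of the 114 spots (8.77%), against 0.0630% of those 4760. Of the 114 spots 41.2% lay in the last 25% of the array's rows, against 25.5%. The part of uneven spots and of position in these peaks was not tested.

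**Figure D5:**
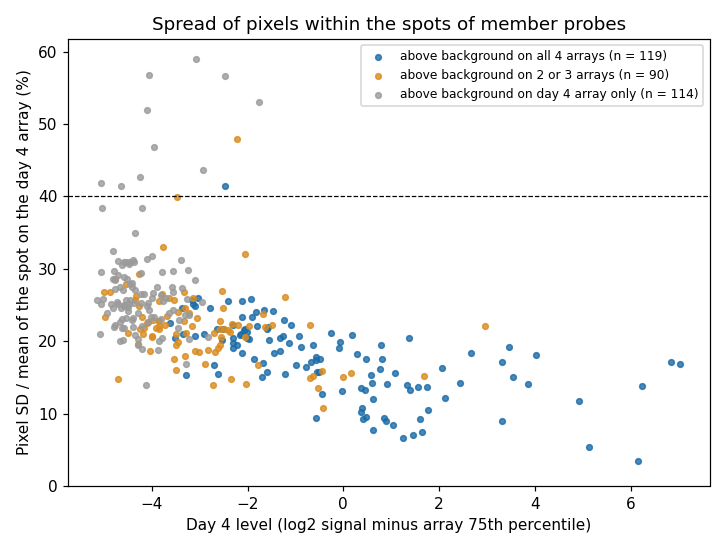
Pixel SD as a percent of the mean of the day 4 spot (y axis; averaged where a probe has several spots) against the day 4 level (x axis, log2 signal minus the array's 75th percentile) for member probes; colours as in the profiles, dashed line at 40%. Most points above the line are grey, measured on the day 4 array alone.

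Other probes of the same genes gave a further view, although they read the same 4 RNA samples. Of the 301 member genes 189 had 1 probe. The remaining 112 had several, and in 18 of these all were members. The 20 genes with at least 2 member probes included Prl2c5, Pla2g7, Mest, Pgm5, Hbb-y, Cxcl12, Igfbp3, Bex1, Tff1 and S100g. Another 70 probes of member genes were well above background at day 4 without being members. Of these, 38 were higher at day 4 than in the control and at day 8, while 32 were not. The 38 were 15 of 30 probes of genes whose member probes were measured at day 4 alone, and 23 of 40 of the others. The same share over all probes was not counted, so 38 of 70 is a description and does not show that probes agree. Dna2 and Traf7 are examples of the 32. The Dna2 member probe was above background at day 4 alone (-4.35), and the other read -3.22, -4.32, -3.65 and -3.94. The Traf7 member probe read -2.05 at day 4, and the other, far brighter, 5.14, 4.97, 4.80 and 4.71.

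Of 296 member genes with a position, 24.3% had any probe measured at day 4 within 500 kb of a member probe of another gene, against 19.1% of all 16414 genes measured at day 4 by the same count. The Sprr and Serpina3 groups, Krt12 with Krt27, and Cd200r2 with Cd200r3 were among them. RefSeq promoter windows (250 bases before to 50 after the start) were found for 228 of 282 member symbols. TATAAA on either strand was present in 18.4% of them, against 10.3% of the 12233 windows of genes measured at day 4 and 15.7% of all 27025. The AP-1 site TGACTCA was in 9.21%, against 4.88% and 5.95%. The octamer ATGCAAAT was in 3.95% (9 genes, the printed Sprr2 promoters among them), against 1.71% and 1.97%. In the 146 members measured on more than the day 4 array, the octamer was in 2.05% (3 genes), close to the background, TATAAA in 20.5% and TGACTCA in 7.53%. The GC box GGGCGGG was less frequent, in 35.5% against 47.5% of measured genes and 27.9% of all, and the median GC content was 55.6%, 59.7% and 52.8%. A match is a description of the letters only.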

How the data were processed

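The authors hybridized Cy3-labelled total RNA to Agilent arrays and deposited, per the file headers, Feature Extraction 10.7.3.1 output with an intensity for each of 62976 spots after background subtraction (the submitters' processing notes name version 9.5.3). The authors' table holds log2 values that differ from the log2 processed intensity by 1 constant per array; it served as an alternative. Control spots (3671) and outlier spots (87 to 106 per array) were left out, spots of a probe were averaged as log2, and the array's 75th percentile was subtracted. Between 56.6% and 59.6% of probes were well above background. The number of arrays limits the precision. Probe positions are on mm9. Symbols are those of the files, matched to RefSeq for 304 member probes. A fold against a probe not well above background was taken against the higher of its own level and the lowest level well above background on that array.

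Members and lists were chosen with earlier results of these data known. Named genes were the 15 greatest peaks, up to 4 members and 2 other genes per list, the edge of the threshold, and the extremes at day 6; others were chosen after their values were seen. A gene that this rule names is not reported here. The code that applies the rule was tested on simulated data, which checks the code and not the members. No test between conditions was possible with 1 array each. Alternatives changed the scale, background correction, flags and thresholds. Normexp and quantile normalization were run with limma 3.58.1 in R 4.3.3, and all else in Python 3.11.15 with pandas 2.3.3 (numpy 2.4.6, scipy 1.17.1).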

Additional observations from a re-analysis of the deposited data

Results flagged for a closer look

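Some probes that the rule left out met the same thresholds. Among the A_30_P probes of long noncoding RNAs and similar transcripts, 98 of 6543 well above background at day 4 were at least 2-fold above both the control and day 8. Among the probes with a symbol, 323 of 22319 (1.45%) met these thresholds. So did a further 25 probes without a gene symbol, and how many such probes were well above background at day 4 was not counted. They were not analysed here.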

How the results depend on the processing

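No paired analysis was possible because no condition had a second array. Of 83 values under 14 alternatives, 59 moved little (counts within 1.5 times, shares within the exact binomial 95% interval of the reported share, the median share within the array error of a member of typical size) and 24 moved; the cause was not tested unless the alternative itself gives it. Counts of member probes and genes were 60 and 54 after normexp and quantile normalization, 650 and 621 with no background filter, 119 and 111 for probes well above background on all 4 arrays, 137 and 131 with differences of at least 1.5, and 494 and 460 with at least 0.8. The share that held at day 6 (45.5%) was 53.0% on the array median scale, 55.0% after normexp, 58.8% on all 4 arrays, 16.8% at 1.5 and 58.9% at 0.8. The median share of the fall reached by day 6 (66.8%) lay between 60.8% and 76.7% under all alternatives, within that error. The error is that of 1 member probe and spans 46.6% to 87.0%, a wide band for a median over 323 probes. The share above the control at day 8 (67.8%) was 76.1% with the 75th percentile of probes well above background on all arrays, 80.0% after normexp, 46.2% with no background filter, 73.1% on all 4 arrays, 82.4% with dim values raised to the lowest level above background, and 59.1% at 1.5. The share more than 2-fold below the control at day 8 (6.81%) was 3.38%, 3.36% and 1.95% with no filter, on all 4 arrays and with dim values raised. The array median scale shifted all probes by -0.14 (day 4 minus control) and 0.12 (day 4 minus day 8). The authors' values gave the same 323 members. Their columns are the same log2 signal on nearly the same scale, with 75th percentiles between 0.0037 and 0.0072. That outcome was thus all but fixed in advance and is no independent check. Means over a gene's probes gave no count of probes and 240 genes. Removing spots with a pixel spread over 40%, and keeping only names matched to RefSeq, both chosen after seeing the data, left 311 and 304 probes.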
